A study of Homo sapiens with 6 samples.

Results

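The HOX cluster genes are the homeobox transcription factor genes HOXA, HOXB, HOXC and HOXD. Their members were taken from the count table as protein-coding genes named HOXA, HOXB, HOXC or HOXD followed by a number, which gave 39 of 58870 genes. The HOXA cluster held 11 members, HOXB held 10, HOXC held 9 and HOXD held 9. RNA sequencing covered WM164, an established human melanoma cell line, with 3 libraries from cells overexpressing green fluorescent protein (GFP) as the control and 3 libraries from cells overexpressing T-MGM. T-MGM is a single chain in which the melanocyte isoform of MITF, the lineage transcription factor of pigment cells, is joined by a flexible linker to MAFG, a small MAF transcription factor. The study's methods describe lentiviral vectors with an EF1α promoter and blasticidin selection for both constructs. Every library comes from 1 line. The labels do not say whether the 3 libraries of a group came from separate cultures, so p-values measure only the spread between these libraries, which may be technical.

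HOX proteins bind DNA through the homeodomain, often together with cofactors of the PBX, MEIS and PKNOX families, and give cells a position along the body axis in the embryo. The genes stand in each cluster in the order of their numbers. Genes with low numbers are known for expression in the hindbrain and anterior trunk, and genes with high numbers for expression in the posterior trunk, limbs and urogenital tract. Genes with the same number in different clusters form a paralogue group. Adult cells keep part of their HOX pattern, which Polycomb proteins repress and Trithorax proteins maintain.

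In GRCh38 coordinates (annotation GENCODE 44), the HOXA cluster lies on chromosome 7, the HOXB members span chr17:48528526-48728750, the HOXC members chr12:53938831-54056030 and the HOXD members chr2:176092721-176190907. The genes lie close together, and 20 of the 39 members have an exon that overlaps an exon of a gene on the opposite strand, while 16 have an exon that overlaps an exon of another gene on the same strand. The labels name a library kit without strand information and the study's methods one with it, so reads of such members and of their antisense partners cannot be told apart here with certainty. Total counts were 35057239 to 38738065 with GFP and 44577774 to 59250663 in libraries labelled T-MGM, so a floor of 3 counts corresponded to 0.0506 to 0.0856 CPM (counts scaled to depth), counting error only. The genes of the construct did not mark the groups clearly. MAFG had 2458 ± 70.3 normalized counts (SD, n = 3) with GFP and 2358 ± 34.9 (SD, n = 3) in libraries labelled T-MGM, and MITF had 19161 ± 46.9 (SD, n = 3) and 20269 ± 165 (SD, n = 3). Every direction below therefore rests on the labels. Of 7 melanocytic markers, 6 were expressed and TYRP1 had at most 6 counts in any library. The summed level of the 7 was 964 to 977 TPM (abundance scaled for transcript length and depth) with GFP and 831 to 865 TPM in libraries labelled T-MGM.

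Sequences before the start of 3 members are shown because their starts are annotated in the RefSeq promoter table, because they include members that were higher and a member that was lower in libraries labelled T-MGM, and because MITF is known to bind E-boxes. RefSeq windows (GRCh38.p14) were found for 20 of the 39 members. Each line gives the 250 bases before the annotated start, 5′ to 3′ on the strand of the gene, and capitals mark an E-box with the letters CACGTG, or CATGTG read on either strand. The HOXA11 window is chr7:27185233-27185482 on the minus strand, the HOXA13 window chr7:27200092-27200341 on the minus strand and the HOXD13 window chr2:176092471-176092720 on the plus strand.
HOXA11: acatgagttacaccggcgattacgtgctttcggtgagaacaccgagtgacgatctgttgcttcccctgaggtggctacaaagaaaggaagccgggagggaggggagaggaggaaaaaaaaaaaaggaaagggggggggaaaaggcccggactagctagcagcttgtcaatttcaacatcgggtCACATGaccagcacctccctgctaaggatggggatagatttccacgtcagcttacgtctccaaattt
HOXA13: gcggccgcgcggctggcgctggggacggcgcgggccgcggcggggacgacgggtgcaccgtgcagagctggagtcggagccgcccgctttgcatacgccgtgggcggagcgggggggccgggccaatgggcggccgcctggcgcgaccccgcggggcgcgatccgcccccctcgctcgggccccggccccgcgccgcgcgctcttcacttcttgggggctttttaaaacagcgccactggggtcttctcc
HOXD13: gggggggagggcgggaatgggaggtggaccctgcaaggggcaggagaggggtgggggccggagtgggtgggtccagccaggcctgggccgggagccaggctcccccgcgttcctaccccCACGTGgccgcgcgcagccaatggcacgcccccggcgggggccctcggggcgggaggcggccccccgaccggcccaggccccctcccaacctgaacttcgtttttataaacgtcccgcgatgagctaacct
The E-box of HOXA11 began 67 bases before the start and that of HOXD13 131 bases before it, and the HOXA13 window held neither E-box. The GC content of the windows was 51.6% for HOXA11, 78% for HOXA13 and 74% for HOXD13. Some members have several windows, and CACGTG was in 8 of the 27 HOX windows, or 29.6%, against 6.34% of 35116 windows of all genes. CATGTG on either strand was in 9 of 27 windows, or 33.3%, against 9.42% of all windows. The letters TGCTGA, the core of the element bound by MAF proteins, on either strand were in 4 of 27 windows, or 14.8%, against 14.02% of all windows. CACGTG was in windows of HOXA3, HOXA4, HOXA9, HOXD1, HOXD3, HOXD10, HOXD11 and HOXD13. CATGTG on either strand was in windows of HOXA2, HOXA3, HOXA7, HOXA11, HOXB1, HOXC4, HOXC5, HOXD4 and HOXD10. Of all these genes, HOXA3 and HOXD13 were called lower and HOXA11 and HOXC5 higher in the comparison below. There 19.2% of all genes tested were called in each direction, and HOXB1, HOXD10 and HOXD11 had no adjusted p. Members without a RefSeq window could not be searched, so absence from these lists does not mean that an E-box is absent. These are counts of letters and not of bound sites, and a link between E-boxes and the differences was not tested.

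WM164 cells expressed 19 of the 39 members, counting a member as expressed at a mean of at least 1 TPM in either group. A further 18 had more than 3 counts in some library but stayed under that level, and HOXD10 and HOXD11 had at most 3 counts in every library. By cluster, 6 of 11 HOXA, 6 of 10 HOXB, 5 of 9 HOXC and 2 of 9 HOXD members were expressed. The summed level of the HOXB members was 103, 102 and 99.6 TPM in the 3 GFP libraries, the highest of the 4 clusters. HOXA members summed to 41.2 to 44.9 TPM, HOXC members to 33.7 to 37.8 TPM and HOXD members to 21.4 to 23.6 TPM in the same libraries.

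HOXB2, a paralogue group 2 gene known from hindbrain patterning, had the highest level of all members, at 56.2, 55.0 and 52.7 TPM in the GFP libraries. HOXA3 followed at 18.4 to 19.8 TPM and did not overlap HOXB2 or the next member. HOXB6 at 14.8 to 16.5 TPM, HOXD13 at 14.2 to 15.9 TPM, HOXC10 at 13.8 to 16.3 TPM and HOXB9 at a mean of 12.7 TPM came next. From HOXD13 on, each overlapped the one before it in the range of its 3 libraries, so their order is not resolved. HOXC10 and HOXD13, genes of the posterior groups, thus overlapped HOXB6, a gene of the middle groups, in level. HOXC4 at 9.41 to 9.78 TPM, HOXA4 at 7.47 to 10.2 TPM and HOXB3 at 8.03 to 9.13 TPM were separate from HOXB9 above, and HOXA4 overlapped both others while HOXC4 lay above HOXB3. Between 4.41 and 7.58 TPM lay HOXB4, HOXD8, HOXA5 and HOXC9, each overlapping its neighbour in this order. HOXC6 and HOXA10 lay between 2.78 and 4.48 TPM. HOXC13 at 1.77 to 2.12 TPM, HOXA6 at 1.35 to 1.68 TPM and HOXB8 at 1.03 to 1.69 TPM were the lowest of the expressed members. In the HOXD cluster, HOXD8 and HOXD13 were expressed while HOXD9, which lies between them, had 0 counts in all 3 GFP libraries. A count of 0 allows up to 3 counts in each library, and HOXD9 had 5, 0 and 1 counts in libraries labelled T-MGM.

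**Figure D1:**
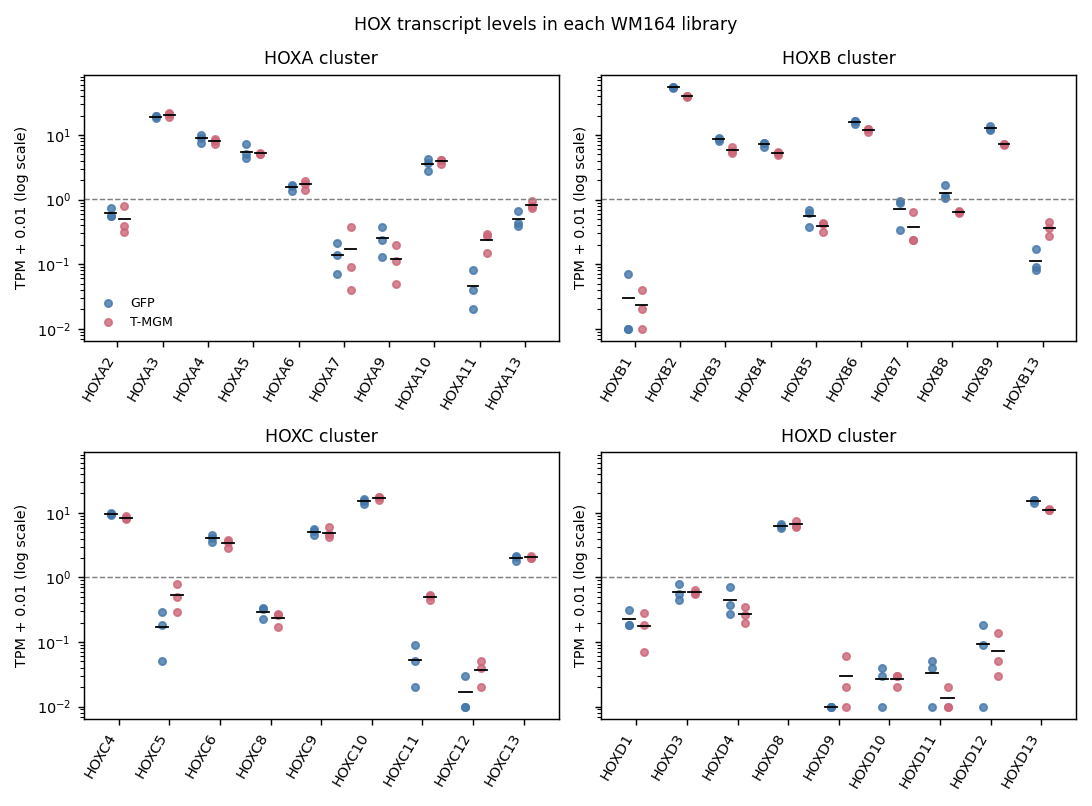
Level of the HOX members described here in every library, in deposited TPM plus 0.01 on a log axis, with one panel per cluster. Blue points are the 3 GFP libraries, red points the 3 libraries labelled T-MGM, short lines the group means, and the dashed line marks 1 TPM; HOXB2 stands highest at 52.7 to 56.2 TPM in the GFP libraries, and HOXC11 is the low member whose groups lie furthest apart.

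The comparison of the libraries labelled T-MGM with the GFP libraries asks how transcript levels differ when the tethered dimer is overexpressed. Across all 19135 genes with an adjusted p from DESeq2, 38.4% passed at an adjusted p of 0.05 or under, with 19.2% higher and 19.2% lower. Of the 35 HOX members with an adjusted p, 15 passed, or 42.9%, with 6 higher and 9 lower, a share close to that of all genes. The 6 higher members were HOXA11, HOXA13, HOXB13, HOXC5, HOXC10 and HOXC11. The lower members included HOXA3, HOXB2, HOXB3, HOXB4, HOXB6, HOXB8, HOXB9 and HOXD13. HOXB1, HOXD9, HOXD10 and HOXD11 had too few counts for an adjusted p. Past a fold change of 2 as well were 5 of the 35 members, or 14.3%, against 4.63% of all genes, and all 5 were higher, where 3.26% of all genes were higher and 1.36% lower. These 5 were HOXA11, HOXA13, HOXB13, HOXC5 and HOXC11, and each stayed under 1 TPM in every library. No expressed member was called over 2-fold. Of the 35 members with an adjusted p, 19 had normalized counts that did not overlap between the groups, with 9 higher and 10 lower. Over all genes tested 46.8% did not overlap, with 23.4% higher and 23.4% lower.

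Calls in each direction were counted by cluster and by paralogue group. In the HOXB cluster, 6 of 9 members with an adjusted p were lower and 1 was higher, against 2 lower and 2 higher of 11 in HOXA, 0 lower and 3 higher of 9 in HOXC, and 1 lower and 0 higher of 6 in HOXD. In paralogue groups 11 to 13, 4 of 8 members were higher and 1 lower, and in groups 1 to 10, 2 of 27 were higher and 8 lower, beside 19.2% of all genes in each direction. The median log2 fold change was −0.39 in HOXB, 0.11 in HOXA, 0.18 in HOXC and −0.26 in HOXD, beside −0.003 over all genes tested. These medians include members with few counts. Among members averaging 50 or more normalized counts, the median was −0.49 for 6 HOXB and −0.01 for 7 HOXA members. It was −0.03 for 5 HOXC and −0.04 for 2 HOXD members, beside −0.010 over all genes at that level. The grouping by number was made with the values known, these counts describe the clusters, and the difference between clusters or paralogue groups was not tested.

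**Figure D2:**
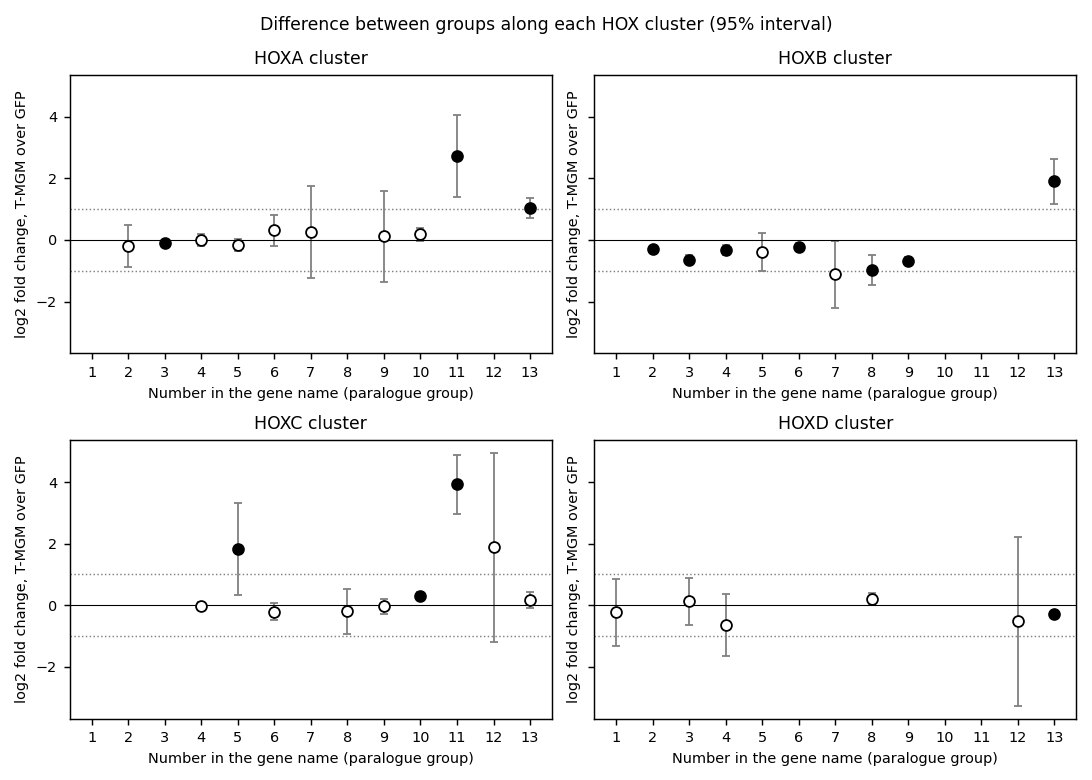
Log2 fold change of the HOX members described here with the 95% interval from DESeq2, T-MGM over GFP, by the number in the gene name, one panel per cluster; filled points passed an adjusted p of 0.05, open points did not, dotted lines mark 2-fold, and the 4 members without an adjusted p are not drawn. In HOXB every point from HOXB2 to HOXB9 lies under 0 and HOXB13 lies above, at 1.91.

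The members that were higher were mostly posterior genes at low levels. HOXC11 (ENSG00000123388.4, chr12:53973126-53977643), a group 11 gene, had 8, 2 and 3 counts with GFP and 77, 78 and 107 counts in libraries labelled T-MGM. After scaling for depth these were 5.06 ± 3.97 (SD, n = 3) and 75.1 ± 4.44 (SD, n = 3) normalized counts, and the lowest library labelled T-MGM lay well above the highest GFP library. The difference was 3.92 on the log2 scale (SE 0.49, adjusted p = 1.29e-14 by DESeq2), a fold change of 15.2 with a 95% interval of 7.79 to 29.5. Without GFP replicate 1 the log2 fold change was 4.76. Its level in libraries labelled T-MGM was still only 0.493 ± 0.0473 TPM (SD, n = 3).

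HOXA11 (ENSG00000005073.5, chr7:27181157-27185232), the group 11 paralogue in the HOXA cluster known from limb and uterine development, had 1, 3 and 6 counts with GFP and 34, 16 and 39 counts in libraries labelled T-MGM. The groups did not overlap, and the log2 fold change was 2.74 (SE 0.68, adjusted p = 2.51e-04 by DESeq2), and 3.48 without GFP replicate 3. Exons of HOXA11 overlap those of the antisense RNA HOXA11-AS, which had at most 2 counts in the GFP libraries and at most 8 in libraries labelled T-MGM (log2 fold change 2.26, DESeq2 adjusted p = 0.210). HOXA13 (ENSG00000106031.8, chr7:27193503-27200091), a group 13 gene known from digit and urogenital development, had 131, 95.3 and 106 normalized counts with GFP and 254, 204 and 221 in libraries labelled T-MGM. Its groups did not overlap, and the log2 fold change of 1.03 (SE 0.17, adjusted p = 3.17e-09 by DESeq2) lay close to the 2-fold limit, with a 95% interval of 1.64 to 2.57 on the fold scale. It was 0.94 without GFP replicate 2 and 0.95 without T-MGM replicate 1, under 2-fold but still past the adjusted p.

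HOXB13 (ENSG00000159184.7, chr17:48724763-48728750), a group 13 gene known from the prostate, lies apart from the rest of the HOXB cluster. It had 12, 11 and 23 counts with GFP and 53, 66 and 113 counts in libraries labelled T-MGM. The groups did not overlap, the log2 fold change was 1.91 (SE 0.37, adjusted p = 1.80e-06 by DESeq2), and no other annotated gene overlaps HOXB13. HOXC10 (ENSG00000180818.5, chr12:53985065-53990279), a group 10 gene, was the only expressed member that was higher. It had 938, 916 and 999 normalized counts with GFP and 1192, 1190 and 1142 in libraries labelled T-MGM. The groups did not overlap in normalized counts, and the log2 fold change was 0.30 (SE 0.06, adjusted p = 1.73e-06 by DESeq2). In TPM the groups overlapped, at 13.8 to 16.3 with GFP and 15.7 to 17.4 in libraries labelled T-MGM. HOXC10 passed in 14 of 17 alternatives. Exons of HOXC10 overlap those of the antisense gene HOXC-AS3.

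HOXC5, a group 5 gene near the HOXC4 end of its cluster, had 19, 13 and 3 counts with GFP and 28, 73 and 63 counts in libraries labelled T-MGM. The groups did not overlap after scaling, but by a narrow margin, at a highest GFP value of 22.8 and a lowest value of 25.5 normalized counts. The log2 fold change was 1.83 (SE 0.76, adjusted p = 0.0426 by DESeq2), and the adjusted p rose to 0.128 without GFP replicate 2 and to 0.137 without T-MGM replicate 3. Without GFP replicate 1 the log2 fold change was 2.43. Its exons overlap those of other annotated genes of the cluster on the same strand, so its reads may be shared. Of the remaining posterior members, HOXC12 had at most 7 counts in any library, HOXD12 at most 5, and HOXC13 had a log2 fold change of 0.18 (DESeq2 adjusted p = 0.301).

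**Figure D3:**
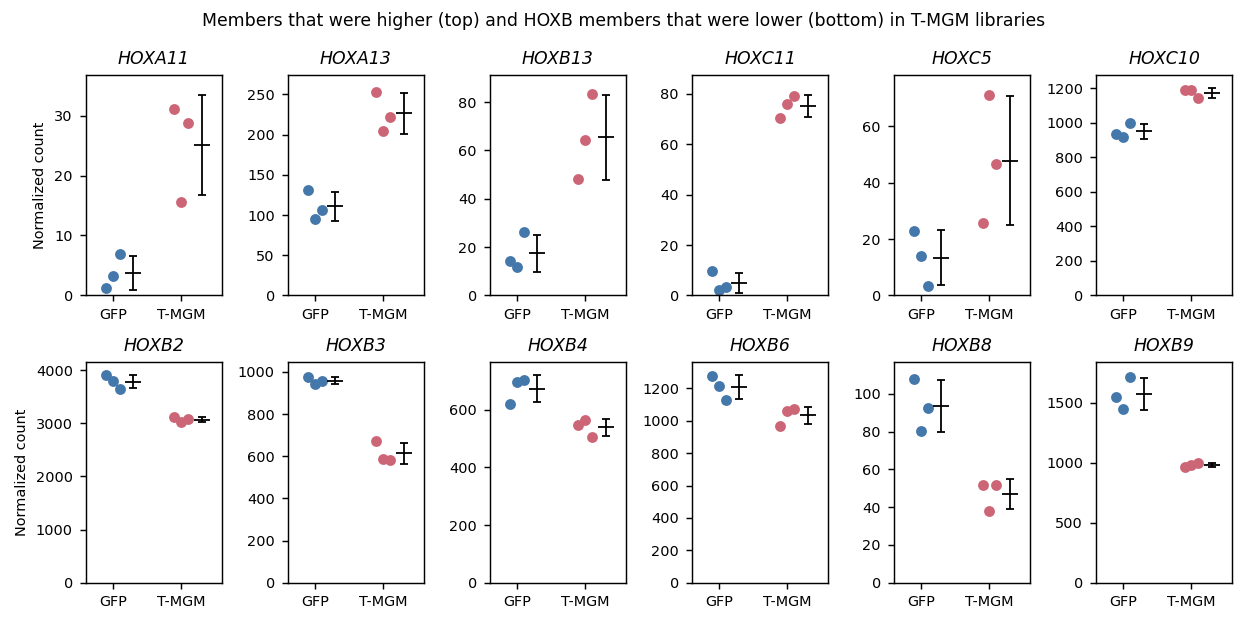
Normalized counts in every library for the 6 members that were higher (top) and 6 HOXB members that were lower (bottom), each panel on its own axis starting at 0. Points are libraries (blue GFP, red T-MGM as labelled) and the bar beside them gives the mean and SD of 3 libraries; the groups do not overlap in any panel, and HOXC5 has its nearest libraries at 22.8 and 25.5 normalized counts.

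The HOXB cluster held most of the members that were lower, and these counted as expressed at a mean of at least 1 TPM in either group. HOXB8 reached that level only with GFP, at a mean of 1.28 TPM against 0.637 TPM in libraries labelled T-MGM. The summed HOXB level was 72.5, 72.1 and 71.4 TPM in libraries labelled T-MGM, which is 0.707 of the GFP mean and under all 3 GFP libraries. TPM values as a whole were lower in those libraries, with a median log2 difference of −0.131 over genes averaging 50 or more normalized counts, against −0.010 for the normalized counts. The mean HOXA sum was 43.3 ± 1.93 TPM with GFP and 43.5 ± 1.56 TPM with the T-MGM label (SD, n = 3), and the HOXC sum 36.3 ± 2.21 and 36.9 ± 0.408 TPM. The HOXD sum was 0.835 of the GFP mean.

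HOXB9 (ENSG00000170689.10, chr17:48621156-48626358), a group 9 gene expressed in the trunk of the embryo, had 1551, 1452 and 1718 normalized counts with GFP and 967, 981 and 997 in libraries labelled T-MGM. The groups were far apart, and the log2 fold change was −0.68 (SE 0.06, adjusted p = 3.71e-28 by DESeq2), a fold change of 0.624 with a 95% interval of 0.575 to 0.678. HOXB3 (ENSG00000120093.11, chr17:48548870-48604912) had 977, 941 and 958 normalized counts with GFP and 671, 589 and 582 in libraries labelled T-MGM. Its groups did not overlap either (log2 fold change −0.64, SE 0.07, adjusted p = 5.04e-18 by DESeq2), although its annotated span overlaps HOXB4, HOXB5 and HOXB6, and its exons overlap those of HOXB4 and HOXB6.

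HOXB2 (ENSG00000173917.10, chr17:48540894-48545109) had 3913, 3793 and 3656 normalized counts with GFP and 3115, 3028 and 3074 in libraries labelled T-MGM. It stayed the member with the highest level in both groups while falling by 0.30 on the log2 scale (SE 0.03, adjusted p = 3.03e-18 by DESeq2). HOXB8 had 108, 80.1 and 92.5 normalized counts with GFP and 52.0, 38.1 and 51.7 in libraries labelled T-MGM. Its log2 fold change of −0.98 (SE 0.25, adjusted p = 3.20e-04 by DESeq2) was the largest drop among members that passed and lay just short of 2-fold. HOXB4, with 621, 696 and 704 against 546, 564 and 507 normalized counts, and HOXB6, with 1277, 1217 and 1127 against 970, 1058 and 1070, were also lower. Both had groups that did not overlap, with log2 fold changes of −0.33 (DESeq2 adjusted p = 2.99e-04) and −0.22 (DESeq2 adjusted p = 0.00111). HOXB5 and HOXB7 had negative log2 fold changes that did not pass, at −0.39 (95% interval −1.01 to 0.23) and −1.11 (95% interval −2.20 to −0.03, DESeq2 adjusted p = 0.104). HOXB13, at the far end of the cluster, had the opposite sign.

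Outside HOXB, the clearest drop was in HOXD13 (ENSG00000128714.6, chr2:176092721-176095944), a group 13 gene known from digit development. It had 1638, 1771 and 1813 normalized counts with GFP and 1435, 1412 and 1443 in libraries labelled T-MGM. The groups did not overlap, and the log2 fold change was −0.28 (SE 0.05, adjusted p = 5.47e-08 by DESeq2), opposite in sign to HOXA13 and HOXB13 of the same paralogue group. HOXA3 had 2396, 2497 and 2540 against 2199, 2355 and 2389 normalized counts, and the lowest GFP library stood barely above the highest of the other group. Its log2 fold change of −0.10 (SE 0.04, adjusted p = 0.0479 by DESeq2) was at the threshold, did not pass without GFP replicate 2, GFP replicate 3, T-MGM replicate 1 or T-MGM replicate 2 (adjusted p of 0.148, 0.222, 0.319 and 0.0654), and was positive, at 0.10 to 0.11, in limma fits of the TPM values.

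The other 9 expressed members did not pass. HOXA4 had 466, 513 and 410 normalized counts with GFP and 436, 470 and 475 in libraries labelled T-MGM, a fold change of 0.993 with a 95% interval of 0.871 to 1.13. HOXC4 had 731, 730 and 746 against 706, 749 and 708 normalized counts, a fold change of 0.979 with an interval of 0.890 to 1.08. HOXC9 had 290, 279 and 242 against 261, 230 and 298 normalized counts, a fold change of 0.976 with an interval of 0.818 to 1.16. For these 3 members the intervals reach from 0.818 to 1.16 at most. HOXA5 had 384, 351 and 334 against 311, 332 and 311 normalized counts (log2 fold change −0.16, DESeq2 adjusted p = 0.246), and HOXC6 had 380, 286 and 322 against 337, 237 and 283 (−0.20, adjusted p = 0.254 from DESeq2). HOXD8 had 448, 459 and 472 against 594, 508 and 490 normalized counts (log2 fold change 0.21, DESeq2 adjusted p = 0.0709, and 0.0411 without T-MGM replicate 3). HOXA10 had 294, 265 and 300 against 309, 325 and 340 normalized counts (log2 fold change 0.18, DESeq2 adjusted p = 0.208). HOXA6 had 49.2, 59.6 and 61.7 against 54.7, 83.9 and 73.8 normalized counts, and HOXC13 had 235, 197 and 235 against 242, 245 and 268; neither passed. The groups of HOXA5, HOXA10, HOXC13 and HOXD8 did not overlap although these members did not pass. The low members not yet named, HOXA2, HOXA7, HOXA9, HOXC8, HOXD1, HOXD3 and HOXD4, had at most 74 counts in any library and did not pass, and HOXB1 had at most 4.

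Genes beside each cluster were set next to its members. Over all genes tested, including those averaging under 50 normalized counts, 19.2% were higher and 19.2% lower. Within 1 Mb of HOXB, 23 protein-coding genes averaging 50 or more normalized counts had a median log2 fold change of 0.06, with 8 higher and 7 lower. The 6 HOXB members at that level had a median of −0.49 and ranged from −0.98 to −0.22, while the neighbours ranged from −0.35 to 1.35. HOXB3, HOXB8 and HOXB9 lay below all 23 neighbours, and HOXB2, HOXB4 and HOXB6 within their range. The nearest neighbours at that level were SNX11 (log2 fold change −0.07, DESeq2 adjusted p = 0.660) and CALCOCO2 (−0.02, DESeq2 adjusted p = 0.827). TBKBP1, at 1.35 (DESeq2 adjusted p = 2.14e-08), was the only neighbour at that level that was called over 2-fold. ABI3, which has fewer counts, had 2.11 (DESeq2 adjusted p = 0.00207). SKAP1 and TTLL6, which flank the cluster, averaged under 4 normalized counts in either group.

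Beside HOXA, 8 neighbours had a median of −0.22, with 0 higher and 6 lower, against −0.01 for 7 HOXA members. SKAP2, a neighbour on one side, fell by 0.18 on the log2 scale (DESeq2 adjusted p = 0.00186), and HIBADH, beyond HOXA13, had −0.07 (DESeq2 adjusted p = 0.107). With GC and length correction SKAP2 had −0.02 and did not pass (DESeq2 adjusted p = 0.807). EVX1, a homeobox gene next to HOXA13, had 5, 2 and 5 counts with GFP and 0 in all 3 libraries labelled T-MGM, too few for an adjusted p. Beside HOXD, 4 neighbours had −0.28 to −0.15, with 0 higher and 4 lower, and the −0.28 of HOXD13 was about that of MTX2, a neighbour at −0.28 (DESeq2 adjusted p = 4.22e-04). LNPK, on the other side, had −0.15, and EVX2, next to HOXD13, averaged 3.01 and 3.21 normalized counts in the groups. With GC and length correction HOXD13 had −0.31 and MTX2 −0.21, and both passed (DESeq2 adjusted p of 4.49e-09 and 0.0102). The neighbours ATF2, ATP5MC3 and LNPK then had −0.04, −0.05 and 0.01 and did not pass. Beside HOXC, 28 neighbours had a median of 0.10, with 15 higher and 0 lower, against −0.03 for 5 HOXC members. All these counts stand beside 19.2% of all genes tested in each direction, and a regional difference was not tested. CALCOCO1 had 0.57 (DESeq2 adjusted p = 1.77e-08) and SMUG1 0.04 (DESeq2 adjusted p = 0.824). With the GC content and length of each gene taken into account, the medians of the neighbours were −0.06 for HOXA, 0.03 for HOXB, 0.07 for HOXC and −0.04 for HOXD. Those of the members were −0.13, −0.57, −0.04 and −0.07 in the same order. The medians of HOXA and HOXD members, which had lain above those of their neighbours without the correction, lay below them with it. For HOXD the median is that of only 2 members of opposite sign. Without the correction HOXD8 had 0.21 and HOXD13 −0.28, with a median of −0.04.

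**Figure D4:**
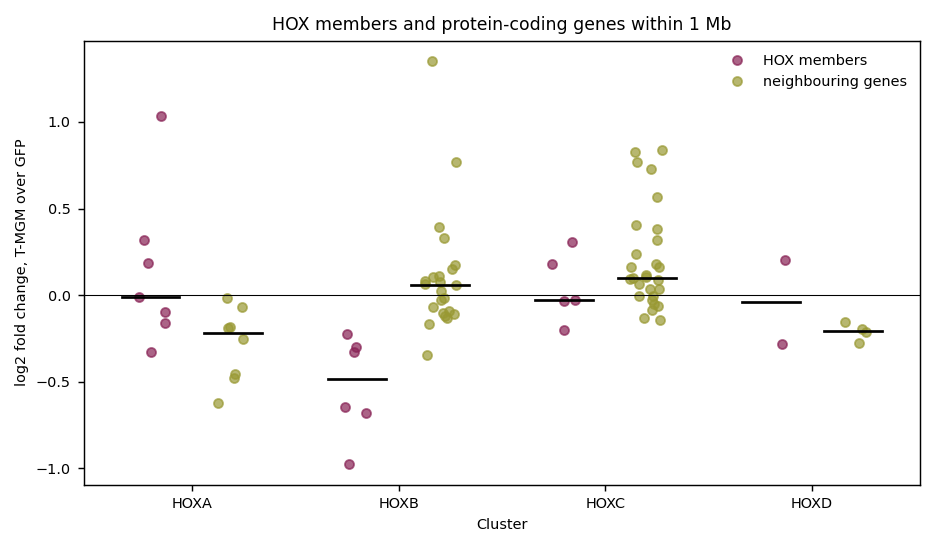
Log2 fold change, T-MGM over GFP, of HOX members (purple) and of protein-coding genes within 1 Mb of each cluster (olive), for genes averaging 50 or more normalized counts; black lines are medians. The 6 HOXB members have a median of −0.49 against 0.06 for 23 neighbours.

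Noncoding genes of the clusters were counted from a list of 18, of which 14 had an adjusted p. Of these, 2 were higher and 1 lower, so 21.4% passed, against 38.4% of all genes tested. HOTAIR, a long noncoding RNA of the HOXC cluster that overlaps HOXC11 without sharing exons, had 1, 2 and 4 counts with GFP and 21, 15 and 23 in libraries labelled T-MGM. The groups did not overlap (log2 fold change 2.67, SE 0.80, adjusted p = 0.00280 by DESeq2), and the log2 fold change was 3.32 without GFP replicate 3. HOXC-AS3 had 12, 19 and 14 against 49, 29 and 41 counts (fold change 2.02, DESeq2 adjusted p = 0.0408), a call that was lost when any 1 of the 6 libraries was left out (adjusted p of 0.0523 to 0.260). HAGLR, an antisense RNA of the HOXD cluster, was the only one that was lower and fell by 0.21 on the log2 scale (DESeq2 adjusted p = 0.00873, and 0.103 without GFP replicate 1 or 0.135 without T-MGM replicate 2). HOXB-AS1, whose exons overlap those of HOXB2 and HOXB3, had a log2 fold change of −0.37 (DESeq2 adjusted p = 0.125).

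Of 9 TALE cofactor genes (PBX, MEIS and PKNOX), 8 had an adjusted p, 1 was higher and 2 were lower. Those that passed were 37.5% of the 8, close to the 38.4% of all genes tested. MEIS3 had 307, 261 and 312 normalized counts with GFP and 425, 489 and 465 in libraries labelled T-MGM (log2 fold change 0.65, DESeq2 adjusted p = 9.51e-09). PKNOX2 fell by 0.20 (DESeq2 adjusted p = 4.95e-05) and MEIS2 fell by 0.13 (DESeq2 adjusted p = 0.00921, and 0.200 without GFP replicate 2 or 0.0707 without T-MGM replicate 2) on the log2 scale. With GC and length correction MEIS2 had −0.03 and did not pass (DESeq2 adjusted p = 0.631).

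Of 16 Polycomb genes, 4 were higher and 4 lower, beside 19.2% of all genes in each direction, with PHC2 at 0.22, SUZ12, a core subunit of the complex that methylates histone H3, at −0.27, and BMI1 at −0.24 (DESeq2 adjusted p of 4.05e-19, 9.08e-10 and 1.72e-08). With GC and length correction these 3 were 0.10, −0.12 and −0.11 and still passed. Of 10 genes of the Trithorax group, histone demethylases and CTCF, 2 were higher and 3 lower, beside the same 19.2% of all genes in each direction. Every gene of both lists was expressed, while the share over all genes also covers genes with few counts. MEN1, a partner of the KMT2A methyltransferase, had a log2 fold change of 0.44 and KMT2A had −0.15 (DESeq2 adjusted p of 1.18e-20 and 1.23e-10). CTCF, which bounds chromatin domains in the clusters, had 0.08 (DESeq2 adjusted p = 0.00364) but −0.08 in the limma fits of TPM.

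The retinoic acid pathway, a known regulator of anterior HOX genes in the embryo, had 5 genes higher and 3 lower of 13 with an adjusted p, where 19.2% of all genes were higher and 19.2% lower. CYP26B1, an enzyme that degrades retinoic acid, had 0, 4 and 3 counts with GFP and 96, 95 and 121 in libraries labelled T-MGM. The groups were far apart (log2 fold change 5.08, SE 0.60, adjusted p = 4.49e-16 by DESeq2). STRA6, a retinol transporter, had 50, 37 and 34 against 129, 126 and 146 counts (log2 fold change 1.33, DESeq2 adjusted p = 1.51e-07). The receptor gene RARA had 0.38 and RXRG −0.25 on the log2 scale (DESeq2 adjusted p of 1.03e-13 and 5.30e-15). Of 13 homeobox genes related to HOX genes but outside the clusters, 8 had at most 3 counts in every library and 4 had an adjusted p. Of these 4, 2 were higher and 0 lower, beside 19.2% of all genes in each direction. CDX2 had 0 counts in all 3 GFP libraries and 10, 4 and 26 in libraries labelled T-MGM, at least 3.14-fold higher when the GFP group is set to the floor of 3 counts per library (DESeq2 adjusted p = 5.41e-04). GBX2 was higher by 0.54 on the log2 scale (DESeq2 adjusted p = 1.66e-05), and MNX1 had 1.13 (DESeq2 adjusted p = 0.0734, and 0.0105 without T-MGM replicate 2).

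Markers of other cell types were also measured. Of 5 fibroblast markers, LUM and COL1A1 were higher in libraries labelled T-MGM (log2 fold changes 0.77 and 1.23, DESeq2 adjusted p of 1.47e-13 and 6.08e-04). COL1A1 averaged only 0.17 TPM with GFP and 0.233 TPM in libraries labelled T-MGM. DCN had 0.11 and did not pass (DESeq2 adjusted p = 0.939). COL1A2 had 1, 5 and 0 against 1, 0 and 1 counts and no adjusted p. COL3A1 had at most 3 counts everywhere, and the summed level of the 5 was 3.60 to 4.58 TPM against 4.40 to 6.10 TPM. The 3 endothelial markers summed to 0.210 to 0.340 against 0.170 to 0.270 TPM with CDH5 at most 3 counts. The 2 leukocyte markers had at most 3 counts everywhere. The 3 keratinocyte and epithelial markers summed to at most 0.05 TPM in the GFP libraries and at most 0.160 TPM in libraries labelled T-MGM. Of the 6 melanocytic markers with an adjusted p, 3 were higher, namely PMEL (log2 fold change 0.05), MITF (0.08) and SOX10 (0.11), and 3 were lower, namely DCT (−2.49), MLANA (−0.68) and TYR (−0.35), all by DESeq2. With GC and length correction PMEL and SOX10 had −0.02 and −0.03 and no longer passed (DESeq2 adjusted p of 0.422 and 0.138). Whether any of these moved with the HOX members for a common reason was not tested, and fewer cells of a type and less RNA per cell cannot be told apart in bulk libraries.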

How the data were processed

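RNA sequencing was analysed in 6 libraries of WM164 cells, 3 GFP and 3 T-MGM, grouped by their titles. The members and gene lists were chosen with earlier results of these data known. The authors trimmed reads with cutadapt 1.8.1, aligned them to GRCh38 with STAR 2.7.7a and used featureCounts on reads with a unique alignment. The deposited counts are raw whole numbers per gene. The authors also deposited TPM values (RSEM 1.3.0 is named in the submitters' processing notes), which scale for length and depth and were used for levels and alternatives. The annotation release is not given in the sources used here.

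Counts of all genes were compared with DESeq2 1.42.0 in R 4.3.3, the test named in the study's methods (negative binomial model, median-of-ratios size factors, 2-sided Wald test, unshrunken fold changes, Benjamini-Hochberg adjustment). A member passed at an adjusted p of 0.05 or under and was called over 2-fold at a fold change over 2. Values are given for each member that passed and each expressed member; from the other lists, for members called over 2-fold and otherwise the 3 with the smallest adjusted p. The values of 1 member are not reported here, although counts over the members include it. Neighbours were those called over 2-fold or nearest each cluster end. Gene positions came from GENCODE 44, which holds 99.4% of the identifiers. Alternatives used edgeR 4.0.16, TMM or total-count scaling, a minimum of 10 counts in 3 libraries, no independent filtering, a replicate block, each replicate left out, GC and length offsets (lowess span 0.3), and limma 3.58.1 on log2(TPM + 1) or log2(TPM + 0.1) with and without a minimum of 0.5 TPM. Scripts were tested on simulated data. Replicate numbers did not pair the libraries.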

Additional observations from a re-analysis of the deposited data

How the results depend on the processing

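HOXB2, HOXB3, HOXB4, HOXB6, HOXB9 and HOXD13 kept their direction and passed in 17 of 17 alternatives, and HOXA11, HOXB13 and HOXC11 in 15 of 15, since a minimum of 0.5 TPM removes them. HOXA3 passed in 5 of 17 alternatives, HOXC5 in 9 of 15, HOXA13 and HOXC10 in 14 of 17 and HOXB8 in 16 of 17. The number of higher members fell from 6 to 0 in limma on log2(TPM + 1) and on log2(TPM + 0.1) and to 3 without the TPM minimum, and that over 2-fold from 5 to 0 in all 3 TPM fits and to 3 with total-count scaling. HOXB8 was called over 2-fold, as the 1 lower member, with total-count scaling, GC and length correction, and that correction with the replicate block. With the replicate block alone 5 members were higher and 7 lower, and 4 over 2-fold; correlations between same-numbered libraries were −0.058 to 0.029, so the numbers do not pair them. Leaving out 1 library gave 3 to 5 higher members over 2-fold (3 without GFP replicate 2) and 0 to 1 lower (1 without GFP replicate 2, T-MGM replicate 1 or T-MGM replicate 3), 1 to 2 noncoding genes against 3 (1 without GFP replicate 1 or T-MGM replicate 2), 3 to 4 Trithorax genes against 5 (3 without GFP replicate 1, GFP replicate 2 or T-MGM replicate 3) and 1 to 3 homeobox relatives against 2 (1 without T-MGM replicate 3). Homeobox relatives numbered 1 in edgeR, with the 10-count minimum, with the replicate block and in the TPM fits. Noncoding genes numbered 1 with the replicate block and GC correction, Polycomb genes 4 there and 5 in each TPM fit against 8, and, without the TPM minimum, Trithorax genes 2 and retinoic acid genes 4 against 8. Log2 fold changes turned for HOXA3 (0.1044, 0.109 and 0.1044 in the TPM fits), CTCF (−0.0779, −0.0801 and −0.0779 there), HOXA4 (0.0015 with TMM; −0.089 to 0.072 leaving out 1 library) and HOXC9 (−0.138 to 0.0514 leaving out 1 library). At 5 TPM, 3 HOXA and 3 HOXC members were expressed, and at 0.5 CPM 8 HOXC and 4 HOXD. Neighbour alternatives were chosen after seeing the data: medians beside HOXA, HOXB, HOXC and HOXD were −0.272, 0.0058, 0.0471 and −0.259 with total-count scaling, −0.0633, 0.0297, 0.0693 and −0.0449 with GC and length correction, −0.400, −0.131, −0.0092 and −0.360 in TPM, and −0.250, 0.0407, 0.0754 and −0.251 within 5 Mb. The cause of these changes was not tested beyond the TPM minimum. Depth limits the members under about 50 normalized counts, whose intervals span several fold.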
